A study of Mus musculus with 24 samples.

Results

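The genes described here were 10 members of the bone morphogenetic protein (BMP) pathway, chosen by symbol from the expression table, which listed 22667 genes and held counts for 21553 of them. They were the ligand genes Bmp4 and Bmp7, the secreted antagonist Nog, the inhibitory SMAD genes Smad6 and Smad7, the 4 Id genes Id1, Id2, Id3 and Id4, and the homeobox gene Msx2. All 10 had counts and passed the filter on low counts. Expression had been measured by sequencing of polyadenylated RNA from mouse E14 embryonic stem cells (ESCs) and from cells differentiated from them, in wild-type (WT) and slow/slow cells with 3 replicates in each of 8 groups, 24 samples in all. Slow/slow cells carried, on both alleles of Polr2a, the gene of the largest subunit of RNA polymerase II, a substitution of arginine by histidine that slows transcript elongation. It had been introduced by gene targeting of one allele after the other, and the number of slow/slow clones behind these samples was not given in the sources used here. ESCs of both genotypes were kept in medium with inhibitors of MEK and GSK3 and with leukemia inhibitory factor. Neural progenitor cells (NPCs) were harvested at day 7 of differentiation, PSA-NCAM+ cells, which bear a neural cell adhesion molecule carrying polysialic acid, were purified with beads at day 10, and neurons were harvested 14 days after NPCs had been replated at day 7. For NPCs and PSA-NCAM+ cells the WT cultures were seeded at 10000 and the slow/slow cultures at 30000 cells per cm2, so that at these stages genotype and seeding density cannot be told apart. Neurons came from replated NPC cultures, so their history may hold the same difference in seeding density.

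BMPs are secreted proteins that bind pairs of type I and type II serine/threonine kinase receptors. The receptors phosphorylate SMAD1, SMAD5 and SMAD9, which enter the nucleus with SMAD4 and activate target genes, among them the Id genes, Msx2 and, as negative feedback, Smad6 and Smad7. Id proteins are helix-loop-helix proteins without a DNA-binding region, and they hold E proteins and proneural factors in dimers that cannot bind DNA. In mouse ESCs BMP signaling through Id genes is known to restrain neural differentiation, and in the embryo NOG and other antagonists shield the forming neural tissue from BMPs.

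Promoter windows are shown for the members in which letters of a known SMAD recognition motif were found, since receptor-activated SMADs bind DNA at such motifs. RefSeq windows on GRCm38.p6 ran from 250 bases before to 50 bases after the annotated start. Those of 6 of the 10 members (Bmp4, Id2, Id3, Id4, Msx2 and Smad6) were searched. Windows of the other members were not searched, so nothing is said here about motifs in them. The search covered both strands for CAGAC, which reads as GTCTG on the other strand, the palindrome GTCTAGAC and the GC-rich motif GGCGCC, none of which contains another. Capitals mark the matches, and each sequence is written 5′ to 3′ on the strand of its gene.
Id3: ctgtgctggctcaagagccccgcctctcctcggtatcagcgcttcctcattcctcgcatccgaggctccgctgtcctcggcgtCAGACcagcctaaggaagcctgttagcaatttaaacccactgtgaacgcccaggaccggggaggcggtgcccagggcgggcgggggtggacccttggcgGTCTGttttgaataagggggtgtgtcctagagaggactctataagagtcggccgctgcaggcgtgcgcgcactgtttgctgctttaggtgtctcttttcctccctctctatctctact
Id2: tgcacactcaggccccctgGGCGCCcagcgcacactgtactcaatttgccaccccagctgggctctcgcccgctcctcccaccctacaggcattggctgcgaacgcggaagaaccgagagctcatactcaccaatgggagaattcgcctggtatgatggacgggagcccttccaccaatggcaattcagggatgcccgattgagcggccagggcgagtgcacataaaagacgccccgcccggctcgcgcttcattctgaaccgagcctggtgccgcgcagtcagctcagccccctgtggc
Id4: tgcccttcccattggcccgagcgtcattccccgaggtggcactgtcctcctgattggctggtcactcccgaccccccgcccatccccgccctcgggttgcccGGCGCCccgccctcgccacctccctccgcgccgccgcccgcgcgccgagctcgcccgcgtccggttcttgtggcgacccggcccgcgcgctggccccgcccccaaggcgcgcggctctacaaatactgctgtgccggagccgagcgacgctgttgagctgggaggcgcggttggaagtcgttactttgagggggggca
Smad6: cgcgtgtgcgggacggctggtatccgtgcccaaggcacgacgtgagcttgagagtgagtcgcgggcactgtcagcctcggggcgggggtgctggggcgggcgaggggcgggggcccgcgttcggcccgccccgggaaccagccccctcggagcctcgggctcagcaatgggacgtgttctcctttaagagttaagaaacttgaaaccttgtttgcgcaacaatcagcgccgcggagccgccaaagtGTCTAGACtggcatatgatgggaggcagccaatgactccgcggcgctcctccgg

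The Id3 window (chr4:136143572-136143871, plus strand) held 2 matches to the CAGAC motif, whose first bases lay at positions -167 and -68 from the start. CAGAC was present in 49.6% of 32851 mouse windows of this length, and the other 5 members' windows had none. The Id2 window (chr12:25096043-25096342, minus strand) held GGCGCC at -231 and the Id4 window (chr13:48260866-48261165, plus strand) held it at -148, a motif found in 11.9% of all windows. In the Smad6 window (chr9:64022010-64022309, minus strand) the palindrome GTCTAGAC began at -4, which 0.213% of all windows contained. The GC content of the 4 printed windows was 60% for Id3, 63.3% for Id2, 73.3% for Id4 and 66.3% for Smad6. Bmp4 and Msx2 windows had none of the 3 motifs. A match describes the letters of the window and does not show that a SMAD was bound there.

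Total counts per library ranged from 32974432 to 104466886. Levels are given below as CPM, read counts divided by library size after scaling of the libraries by the trimmed mean of M-values (TMM), and changes as log2 ratios with their standard error (SE) from edgeR's quasi-likelihood test, called at a Benjamini-Hochberg false discovery rate (FDR) under 0.05 over 16627 genes. The stage labels matched their markers only in part. The pluripotency factor Pou5f1 had means of 1760 and 1777 CPM in WT and slow/slow ESCs, 639 and 736 CPM in NPCs and 82.8 and 36.7 CPM in neurons. The 5 measured pluripotency markers together summed to 1887 to 1961 CPM in WT libraries and 1114 to 1232 CPM in slow/slow NPCs, with 4 of 5 called lower, and in neurons 3 were called higher and 1 lower in slow/slow cells. The neural progenitor markers Hes5 and Fabp7 were under 1 CPM in WT NPCs, with means of 0.36 and 0.24 CPM, and summed levels of the 4 measured progenitor markers were 37.5 to 38.9 CPM in WT libraries and 124 to 167 CPM in slow/slow NPCs. The PSA-NCAM+ libraries numbered 1 stood apart in both genotypes by the summed CPM of 4 measured markers listed for surface ectoderm. It was 5570, 2050 and 2305 in WT libraries 1, 2 and 3 and 3022, 480.8 and 395.2 in slow/slow libraries. Only 2 of the 4, Krt8 and Krt18, had a mean of at least 1 CPM in these cells, so the sum does not by itself name a cell type. In bulk RNA of this kind, fewer cells of a type and less RNA per cell cannot be told apart.

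Differences between genotypes ran in both directions within the gene set and depended on the stage. In ESCs 5 members were higher in slow/slow cells (Bmp4, Id1, Id3, Msx2 and Smad6) and 4 were lower (Bmp7, Id4, Nog and Smad7), which is 9 of 10 against 40.4% of all genes tested (18.5% higher and 21.9% lower). In NPCs 4 were higher (Id1, Id2, Id3 and Msx2) and 4 lower (Bmp4, Bmp7, Id4 and Nog), beside 56.7% of all genes (29.3% and 27.4%). PSA-NCAM+ cells had 4 members higher (Id1, Id2, Id4 and Nog) and 0 lower, a smaller share than the 56.7% of all genes called at that stage (28.6% and 28.1%). In neurons 5 were higher (Id1, Id2, Id3, Msx2 and Smad6) and 3 lower (Bmp7, Id4 and Nog), beside 51.9% of all genes (23.4% and 28.4%). The median change over the 10 members was 0.06, -0.09, 0.22 and 0.35 on the log2 scale at the 4 stages in that order, and over all genes it was -0.02, 0.01, -0.01 and -0.06. Id1 was the member called higher in slow/slow cells at all 4 stages, and no member was called lower at all 4. The CPM ranges of the genotypes did not overlap for 10 of 10 members at the ESC stage (59.8% of all genes), 9 at the NPC stage (74.7%), 3 at the PSA-NCAM+ stage (43.1%) and 10 at the neuron stage (75.6%).

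**Figure D1:**
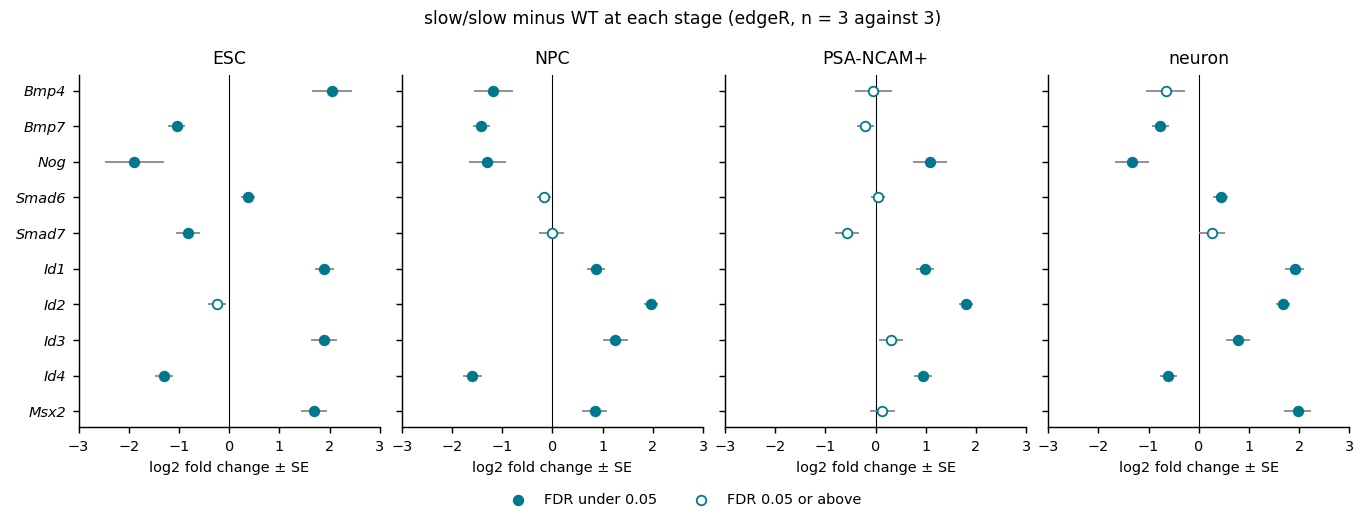
Log2 ratio of slow/slow to WT cells (x axis) with standard errors for the 10 genes at each of the 4 stages, with called differences (FDR under 0.05) as filled points. Id1 lies to the right of 0 at every stage, and Id4 lies to the left at 3 stages and to the right in PSA-NCAM+ cells.

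Bmp4 encodes a BMP ligand that patterns mesoderm and dorsal tissues of the embryo. It had the largest difference of the set in ESCs, where it stood at 6.03, 6.60 and 7.67 CPM in the 3 WT libraries and at 25.7, 30.5 and 28.2 CPM in the slow/slow libraries. All slow/slow ESC libraries were above all WT ones, a 4.16-fold difference (log2 2.06 ± 0.40 SE, FDR 0.000352). At the NPC stage the order was turned, with 13.1, 12.1 and 11.4 CPM in WT libraries and 6.13, 4.22 and 5.74 CPM in slow/slow NPCs. Slow/slow NPCs were thus 2.26-fold lower (log2 -1.18 ± 0.39 SE, FDR 0.0153), a call that was lost without slow/slow NPC library 2 (FDR 0.064). In neurons the values were 9.90, 9.71 and 13.8 CPM in WT libraries and 7.92, 6.29 and 6.93 CPM in slow/slow libraries, with no overlap, and the difference was not called in the fit of all samples (log2 -0.66 ± 0.39 SE, FDR 0.159). A fit of the neuron samples alone called it (log2 -0.67, FDR 0.00098). Bmp4 (chr14:46383520-46390669, minus strand, GRCm38) overlaps the coding gene Gm15217 and the antisense gene Gm15222 on the opposite strand, and whether the counting used strand was not stated, so its counts are uncertain to that extent.

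Bmp7, a ligand of a different BMP subgroup with roles in kidney, eye and brain, showed the opposite sign to Bmp4 in ESCs. In ESCs the WT libraries held 36.8, 33.6 and 38.6 CPM and the slow/slow libraries 18.6, 15.9 and 18.2 CPM. In NPCs it was 39.0, 40.7 and 36.9 in WT and 13.4, 13.1 and 17.3 in slow/slow libraries, and in neurons 54.8, 59.5 and 61.8 against 36.5, 32.8 and 34.5. At each of these 3 stages the WT libraries lay above the slow/slow ones, by 2.07-fold in ESCs (FDR 4.61e-05), 2.67-fold in NPCs (FDR 8.93e-07) and 1.70-fold in neurons (FDR 0.000616). Per transcript length, the authors' mean RPKM of Bmp7 was 9.87 and that of Bmp4 3.19 in WT ESCs, whereas in slow/slow ESCs Bmp4 had the higher mean RPKM (13.0) and Bmp7 the lower (4.69). In NPCs Bmp7 had the higher mean RPKM in both genotypes, with 11.9 against 6.49 for Bmp4 in WT and 4.34 against 2.77 in slow/slow cells. Bmp7 lies at chr2:172868012-172940321 on the minus strand.

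Nog encodes noggin, a secreted protein that binds BMPs and keeps them from their receptors. It was close to the lower limit of detection in ESCs, with 34, 16 and 21 counts in WT libraries (0.517, 0.459 and 0.377 CPM) and 6, 4 and 5 counts in slow/slow libraries (0.136, 0.0818 and 0.155 CPM). The fitted difference was a log2 of -1.89 ± 0.59 SE (FDR 0.0138) and was no longer called without slow/slow ESC library 2 (FDR 0.067). In NPCs Nog was 3.70, 3.62 and 3.24 CPM in WT libraries and 1.51, 1.29 and 1.48 CPM in slow/slow libraries. In neurons it was 15.7, 13.4 and 15.0 CPM in WT libraries and 5.81, 5.91 and 5.76 CPM in slow/slow libraries. The antagonist was thus lower in slow/slow cells at both stages with no overlap, by 2.46-fold in NPCs (FDR 0.00499) and 2.52-fold in neurons (FDR 0.00271). Markers of other cells moved with genotype in neurons. The 4 mesoderm markers summed to 75.7 to 99.7 CPM in WT libraries and 7.71 to 9.01 CPM in slow/slow neurons, with 4 of 4 called lower, and of the 5 measured neuron markers (1556 to 1673 CPM in WT, 1302 to 1487 CPM in slow/slow neurons) 4 were called lower. Their part in the neuron differences of the members was not tested.

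The inhibitory SMAD genes behaved unlike each other. SMAD6 acts mainly against BMP receptors and SMAD7 against both BMP and TGF-beta receptors. Smad6 varied little between genotypes. It was 6.28 to 7.08 CPM in WT libraries and 7.71 to 8.94 CPM in slow/slow ESCs (log2 0.37 ± 0.14 SE, FDR 0.0455), and 2.42 to 3.46 CPM in WT libraries and 3.65 to 4.58 CPM in slow/slow neurons (log2 0.44 ± 0.15 SE, FDR 0.0168). The ESC call was near the threshold and was lost under 4 other processing choices and in 5 of 6 fits that left out 1 ESC library, and the neuron call was lost without WT neuron library 1 or slow/slow neuron library 3. In NPCs Smad6 was 9.88 to 10.7 CPM in WT libraries and 8.82 to 9.69 CPM in slow/slow cells and was not called (FDR 0.322). Smad7 was among the higher members in ESCs, at 122, 116 and 117 CPM in WT libraries and 68.4, 64.3 and 68.8 CPM in slow/slow libraries. It was 1.76-fold lower in slow/slow ESCs, with no overlap (log2 -0.82 ± 0.24 SE, FDR 0.0111). In NPCs the Smad7 ranges overlapped (31.8 to 35.1 CPM in WT libraries and 31.6 to 35.6 CPM in slow/slow cells, FDR 0.962), and in neurons it was 7.27 to 7.998 CPM in WT libraries and 8.76 to 9.89 CPM in slow/slow cells, with no overlap and no call (log2 0.27, FDR 0.394). A fit of the neuron samples alone called it higher in slow/slow cells (log2 0.26, FDR 0.0113).

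Id1 is widely used as a readout of BMP signaling. It was 3.996, 4.93 and 6.54 CPM in WT libraries and 18.3, 21.2 and 17.8 CPM in slow/slow ESCs. In NPCs it was 11.4, 11.9 and 12.8 CPM in WT libraries and 22.2, 18.6 and 25.2 CPM in slow/slow libraries. Every slow/slow library was above every WT library at both stages, by 3.71-fold in ESCs (log2 1.89 ± 0.19 SE, FDR 1.49e-07) and 1.82-fold in NPCs (log2 0.87 ± 0.18 SE, FDR 0.000382). The same order held in PSA-NCAM+ cells, at 53.1, 65.1 and 76.6 CPM in WT libraries and 149, 99.8 and 138 CPM in slow/slow libraries (1.98-fold, FDR 7.87e-05). In neurons Id1 was 10.54, 13.2 and 14.6 CPM in WT libraries and 44.2, 46.8 and 53.1 CPM in slow/slow libraries, a 3.75-fold difference without overlap (log2 1.91 ± 0.18 SE, FDR 4.24e-08). Id1 is also expressed in endothelium, and the summed level of the 3 endothelial markers Pecam1, Cdh5 and Kdr was 9.81 to 12.8 CPM in WT libraries and 95.5 to 119 CPM in slow/slow neurons. All 3 markers were called higher in slow/slow neurons, and their part in the Id1 difference was not tested. In NPCs 1 of the 3 was called higher (Kdr, log2 1.00) and 1 lower (Pecam1, log2 -1.95), and the sum, mostly Pecam1, was 73.1 to 80.0 CPM in WT libraries and 20.5 to 28.2 CPM in slow/slow libraries. Id1 lies at chr2:152736251-152737410 on the plus strand.

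Id2, whose product holds back neuronal and glial maturation in the developing brain, did not follow Id1 in ESCs. There it was near the bottom of the set, at 1.72, 1.55 and 1.53 CPM in WT libraries and 1.47, 1.33 and 1.24 CPM in slow/slow libraries, which did not overlap but were not called different (log2 -0.25 ± 0.18 SE, FDR 0.307). From NPCs on it had the lowest FDR of the 10 members at each stage. NPCs held 11.9, 11.9 and 13.3 CPM in WT libraries and 43.3, 44.1 and 57.8 CPM in slow/slow libraries (3.91-fold, log2 1.97 ± 0.14 SE, FDR 1.36e-09). PSA-NCAM+ cells held 55.9, 37.8 and 34.0 CPM in WT libraries and 152, 149.7 and 143 CPM in slow/slow libraries (3.48-fold, FDR 2.58e-09), and neurons 34.6, 36.3 and 38.3 CPM against 111, 113 and 125 CPM (3.20-fold, FDR 6.6e-09). At these 3 stages the lowest slow/slow value was well above the highest WT value.

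Id3 shared the ESC and NPC differences of Id1. ESCs held 4.24, 6.86 and 6.47 CPM in WT libraries and 16.4, 24.2 and 23.6 CPM in slow/slow libraries (3.68-fold, log2 1.88 ± 0.26 SE, FDR 8.15e-06). NPCs held 11.4, 10.1 and 10.4 CPM in WT libraries and 25.1, 22.1 and 29.0 CPM in slow/slow libraries (2.39-fold, log2 1.26 ± 0.25 SE, FDR 0.000248). In neither stage did the genotypes overlap. Among PSA-NCAM+ libraries they did, at 172, 111 and 97.8 CPM in WT libraries and 224, 122 and 125 CPM in slow/slow cells, with the libraries numbered 1 highest in both genotypes (FDR 0.277). Neurons had 45.9, 63.6 and 67.2 CPM in WT libraries and 96.3, 93.2 and 113 CPM in slow/slow libraries (1.71-fold, FDR 0.00983), a call that was lost without WT neuron library 1 (FDR 0.065).

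Id4, known for its part in neural stem cells and in the timing of glial differentiation, went the other way from Id1 at 3 stages. In ESCs it was 12.5, 13.1 and 11.3 CPM in WT libraries and 5.31, 5.196 and 4.37 CPM in slow/slow libraries, and in NPCs 7.38, 6.41 and 6.43 CPM against 1.76, 2.36 and 2.66 CPM. Slow/slow cells were 2.47-fold lower in ESCs (log2 -1.30 ± 0.18 SE, FDR 1.18e-05) and 3.02-fold lower in NPCs (log2 -1.59 ± 0.19 SE, FDR 1.2e-06). Neurons held 108, 100.5 and 107 CPM in WT libraries and 61.4, 71.6 and 73.9 CPM in slow/slow libraries (1.52-fold lower, FDR 0.0057). Of the 5 tested astrocyte markers, 4 were called lower and 1 higher in slow/slow neurons. The summed level over 6 astrocyte markers was 248.5 to 302.5 CPM in WT libraries and 93.8 to 105.5 CPM in slow/slow neurons. Their part in the Id4 difference was not tested. In PSA-NCAM+ cells Id4 was instead higher in slow/slow cells, at 12.0, 8.81 and 5.90 CPM in WT libraries and 18.9, 17.1 and 15.3 CPM in slow/slow libraries (1.92-fold, log2 0.94 ± 0.18 SE, FDR 0.000151). Id4 (chr13:48261228-48266026, plus strand) overlaps the antisense gene A330033J07Rik and the long noncoding gene Gm49291, and without stated use of strand their reads cannot be told apart.

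**Figure D2:**
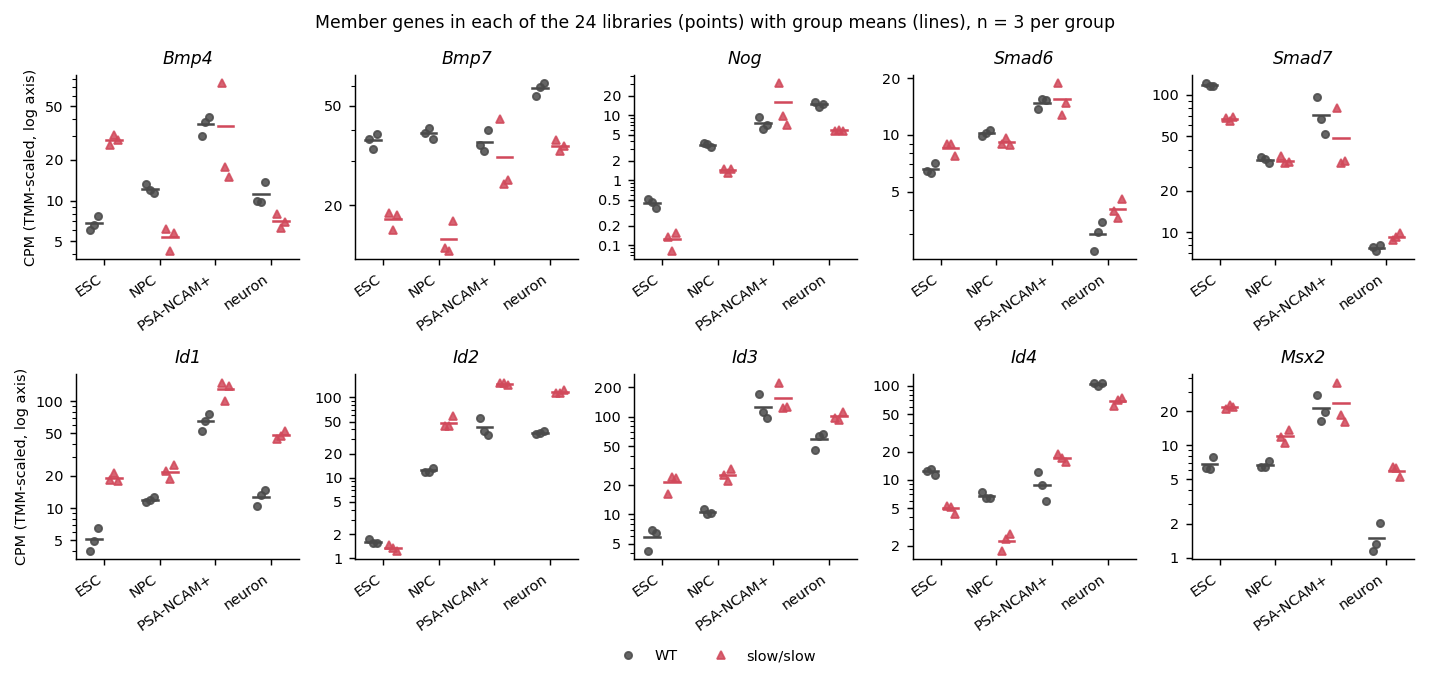
CPM in each library (log axis) of the 10 genes at the 4 stages, with WT libraries as circles, slow/slow libraries as triangles and a line at each group mean (n = 3). The 3 slow/slow points lie above the 3 WT points for Id1 at every stage and for Id2 from NPCs on.

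Compared per transcript length, with the authors' mean RPKM of each group, which carries no error, the 4 Id genes together stood higher in slow/slow than in WT cells at each stage. Their RPKM values summed to 18.0 (WT) and 39.0 (slow/slow) at the ESC stage, 38.1 and 87.6 at the NPC stage, 229 and 399 at the PSA-NCAM+ stage and 157 and 301 at the neuron stage. The make-up of this sum differed as well. In WT ESCs Id4 supplied 39.2% of it and Id1 29.7%, whereas in slow/slow ESCs Id1 supplied 50%, Id3 40.3% and Id4 7.14%. Among NPCs Id1 was the leading Id gene in WT (37.2%) and Id2 in slow/slow cells (45.8%). PSA-NCAM+ cells were led by Id3 in WT (47.4%) and by Id1 in slow/slow cells (35.9%). In neurons Id4 led in WT (41.4%) and was the smallest share in slow/slow cells (15.6%), where Id2 led (34.7%). The leading Id gene was thus a different one in the 2 genotypes at every stage.

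**Figure D3:**
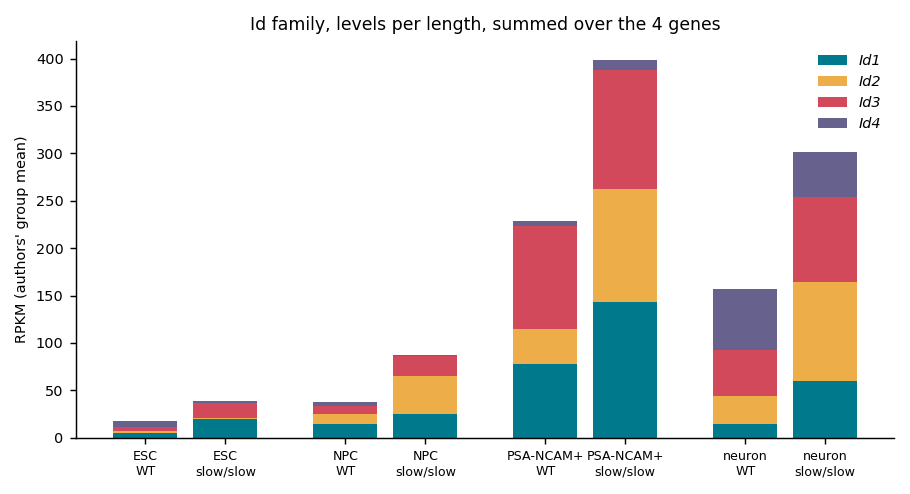
Authors' mean RPKM of Id1, Id2, Id3 and Id4, stacked, in the 8 groups of stage and genotype (a group mean carries no error). Slow/slow bars are higher than WT bars at each stage, from 39.0 against 18.0 in ESCs to 301 against 157 in neurons.

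Msx2, a homeobox gene of dorsal and mesenchymal tissues that BMPs induce, was higher in slow/slow cells at 3 stages. ESCs held 6.30, 6.20 and 7.82 CPM in WT libraries and 21.3, 22.7 and 21.8 CPM in slow/slow libraries (3.23-fold, log2 1.69 ± 0.25 SE, FDR 2.41e-05). NPCs held 6.43, 6.47 and 7.26 CPM in WT libraries and 11.9, 10.52 and 13.7 CPM in slow/slow libraries (1.79-fold, FDR 0.0076). In neurons it was low in WT, at 1.15, 1.33 and 2.04 CPM, and 6.43, 6.22 and 5.23 CPM in slow/slow libraries (3.92-fold, log2 1.97 ± 0.27 SE, FDR 4.43e-06). None of these ranges overlapped. Markers of roof plate and neural crest (Lmx1a, Wnt1, Sox10 and Foxd3), cells that express Msx2, summed to 5.47 to 5.61 CPM in WT libraries and 33.0 to 36.2 CPM in slow/slow neurons, and their part in the difference was not tested. Msx2 lies at chr13:53466884-53473074 on the minus strand. Over the chromosomes that carry members, the median genotype change of all genes lay between -0.14 and 0.15 on the log2 scale at the 4 stages, smaller in size than each called difference of a member.

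In PSA-NCAM+ cells the slow/slow library numbered 1 set the values of several members. Bmp4 was 30.01, 38.0 and 41.8 CPM in WT libraries and 74.4, 17.7 and 14.8 CPM in slow/slow libraries, and Nog was 9.32, 6.09 and 7.09 CPM against 31.4, 9.84 and 7.05 CPM. Smad7 was 96.2, 66.3 and 51.9 CPM against 80.5, 31.7 and 33.1 CPM. For each of these genes the first slow/slow library exceeded the other 2 by a wide margin, and Bmp7 (44.4, 24.3 and 25.1 CPM, with 34.97, 32.9 and 39.8 CPM in WT) and Msx2 (36.1, 18.5 and 16.2 CPM, with 28.04, 16.4 and 19.7 CPM in WT) had the same shape. Smad6 was the exception in size, at 18.9, 12.7 and 14.8 CPM against 13.7, 15.5 and 15.4 CPM in WT. With all libraries, Nog was called higher in slow/slow cells (log2 1.09 ± 0.34 SE, FDR 0.00975), and Bmp4 (FDR 0.93), Bmp7 (FDR 0.302), Smad7 (FDR 0.0544), Id3, Msx2 (FDR 0.657) and Smad6 (FDR 0.763) were not called. Without slow/slow library 1, Nog was not called (log2 0.17, FDR 0.367), and Bmp4 (log2 -1.17, FDR 5.29e-06), Bmp7 (log2 -0.54, FDR 0.000192) and Smad7 (log2 -1.14, FDR 1.19e-06) were lower in slow/slow cells. The calls of Id1, Id2 and Id4 did not depend on it.

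Leaving out both PSA-NCAM+ libraries numbered 1, a choice made after seeing the data, gave 7 called members in place of 4. The share of all genes called in that fit is not given here, so the rise cannot be set against it. Bmp4 (log2 -1.30, FDR 6.14e-08), Bmp7 (log2 -0.56, FDR 8.84e-05) and Smad7 (log2 -0.87, FDR 7.6e-09) were then lower in slow/slow cells, and Id1 (log2 0.74), Id2 (log2 2.03), Id4 (log2 1.15) and Nog (log2 0.36, FDR 0.0237) higher. The PSA-NCAM+ samples were taken as paired by number, from correlations between libraries and not from a label. A fit of these samples alone with the replicate number as a block was also added after seeing the data. It called Id1 (log2 0.98, FDR 0.0125), Id2 (log2 1.83, FDR 0.002), Id4 (log2 1.00, FDR 0.0124) and Smad7 (log2 -0.66, FDR 0.0318) and did not call Nog (log2 0.81, FDR 0.12). With the block in the fit of all samples, Smad7 was called too (log2 -0.60, FDR 0.0243). Id1, Id2 and Id4 were therefore the members called in each of these fits, and a fit of the PSA-NCAM+ samples alone without the block called Id1 and Id2 and not Id4 (FDR 0.053) or Nog (FDR 0.2). The sum of the surface ectoderm markers, in effect Krt8 and Krt18, was highest in the libraries numbered 1 (values above). Mesenchymal markers summed to 711, 370.2 and 504 CPM in WT libraries and 1155, 514 and 458.5 CPM in slow/slow libraries. WT library 1 had the highest surface ectoderm sum and, at 30.01 CPM, the lowest Bmp4 level of the WT libraries. Slow/slow library 1 had the highest sum and, at 74.4 CPM, the highest Bmp4 level of the slow/slow libraries. The part of the cells behind these markers in the PSA-NCAM+ values was not tested.

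**Figure D4:**
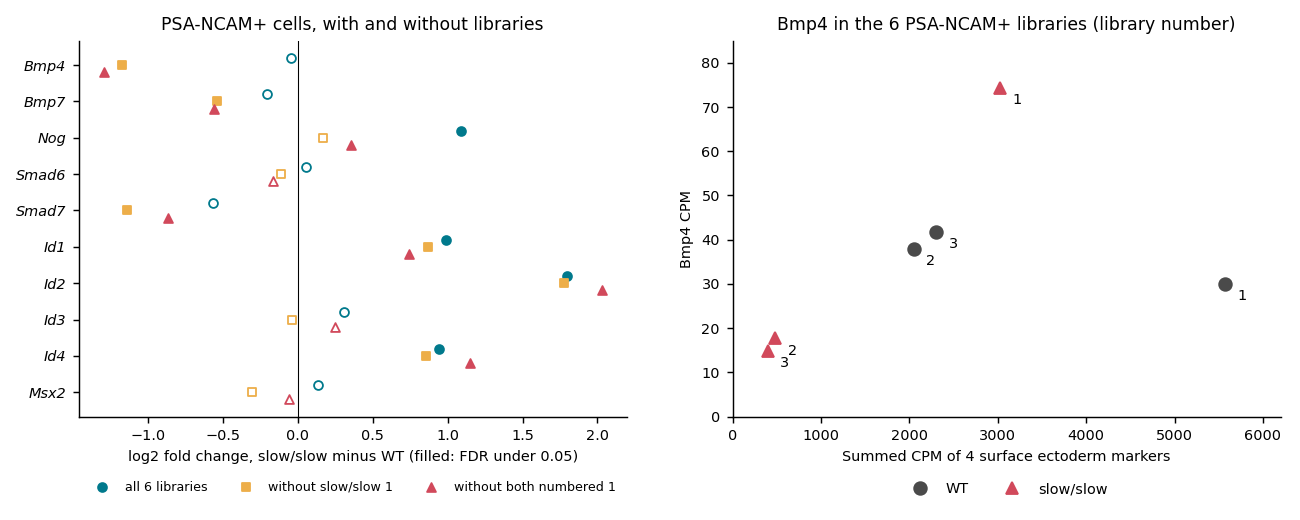
Left, log2 ratio of slow/slow to WT PSA-NCAM+ cells for the 10 genes with all 6 libraries, without slow/slow library 1 and without both libraries numbered 1 (filled, FDR under 0.05). Right, Bmp4 CPM against the summed CPM of 4 surface ectoderm markers in the 6 libraries, where slow/slow library 1 has 74.4 CPM of Bmp4 and the other slow/slow libraries 17.7 and 14.8 CPM.

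Along differentiation the Id genes rose at different steps. From ESCs to NPCs 5 members rose and 2 fell in WT cells (65.6% of all genes were called, 34% upward and 31.6% downward), and 2 rose and 4 fell in slow/slow cells (62.3%, with 33.9% upward and 28.4% downward). Id2 was the member that rose most in slow/slow cells, by 35.8-fold (log2 5.16 ± 0.17 SE, FDR 3.29e-15), and it rose 7.71-fold in WT cells (FDR 5.12e-12). Nog rose by 7.75-fold in WT (FDR 2.73e-06) and 11.7-fold in slow/slow cells (FDR 6.91e-06). Id1 (2.34-fold, FDR 8.77e-06) and Id3 (1.83-fold, FDR 0.00534) rose in WT cells, while in slow/slow cells, which began higher, their log2 changes of 0.20 and 0.25 were not called. Bmp4 fell by 2.39 on the log2 scale in slow/slow cells (FDR 3.45e-05), whereas its change in WT cells was upward, at 0.85 on the log2 scale, and not called (FDR 0.0623). That WT change was called with upper-quartile scaling (FDR 0.0448), by the DESeq2 Wald test (FDR 0.0459) and in a fit of the compared groups alone (FDR 1.05e-09). Smad7 and Id4 fell in both genotypes, Smad7 by 3.53-fold in WT and 2.02-fold in slow/slow cells.

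The PSA-NCAM+ step had the largest share of members that rose, 8 in WT (41.3% of all genes were called, 21.8% upward and 19.5% downward) and 9 in slow/slow cells (42.3%, with 22.5% upward and 19.8% downward), and 0 fell. Id3 rose 11.9-fold in WT (log2 3.58 ± 0.26 SE, FDR 9.29e-09) and 6.18-fold in slow/slow cells (FDR 2.77e-07). Id1 rose 5.39-fold and 5.85-fold, and Id2 3.44-fold and 3.06-fold, in WT and slow/slow cells. The target gene Msx2 also rose, 3.18-fold in WT and 1.95-fold in slow/slow cells. The slow/slow call of Msx2 was lost when only the compared groups were fitted (FDR 0.0883). With 1 library left out at a time it was kept, at a log2 of 0.52 to 1.18. Id4 rose 7.67-fold in slow/slow cells (FDR 3.48e-09), while its WT change of 0.41 on the log2 scale was not called (FDR 0.0751). From NPCs to neurons, where 80.2% of all genes were called in WT (41.4% upward, 38.9% downward) and 75% in slow/slow cells (38.4% and 36.6%), 5 members rose and 3 fell in WT cells and 6 rose and 3 fell in slow/slow cells. Id4 rose most, 15.6-fold in WT (log2 3.96 ± 0.19 SE, FDR 1.56e-13) and 30.9-fold in slow/slow cells (FDR 4.15e-14). The genes that fell were Msx2, Smad6 and Smad7 in both genotypes, Smad7 by 4.37-fold in WT and 3.59-fold in slow/slow cells. Because both steps are measured from the same NPC libraries, the values of the 2 steps are not independent of each other.

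Whether the genotype difference itself changed with stage was tested as an interaction. Between ESCs and NPCs it differed for 3 members (24.6% of all genes, 13.6% toward slow/slow cells and 11% toward WT), by -3.23 ± 0.56 SE on the log2 scale for Bmp4 (FDR 0.000295), -1.02 ± 0.26 SE for Id1 (FDR 0.00624) and 2.21 ± 0.23 SE for Id2 (FDR 1.25e-06). Thus the slow/slow excess of Bmp4 in ESCs became a deficit, that of Id1 became smaller, and that of Id2 appeared. Between NPCs and PSA-NCAM+ cells it differed for Id4, Nog and Bmp7 (14.6% of all genes, 7.52% and 7.04% in the same order), each toward slow/slow cells, by 2.53 ± 0.26 SE for Id4 (FDR 1.28e-05). Between NPCs and neurons 5 members differed (55.1% of all genes, 24.7% and 30.4%), all toward slow/slow cells. These were Bmp7, Id1, Id4, Msx2 and Smad6, with Msx2 at 1.13 ± 0.36 SE (FDR 0.0124) and Id1 at 1.04 ± 0.25 SE (FDR 0.00155). The 3 tests share the NPC libraries.

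The rest of the pathway was described from lists of known components, and a few genes of each are named. Of all genes, 40.4% were called at the ESC stage (18.5% higher and 21.9% lower) and 56.7% at the NPC stage (29.3% and 27.4%). At the PSA-NCAM+ stage 56.7% were called (28.6% and 28.1%) and at the neuron stage 51.9% (23.4% and 28.4%). The counts of such short lists are given beside these shares and are not read as results about a list. Of the other BMP and GDF ligands, 9 of 12 had enough counts to be tested (Bmp10, Bmp15 and Gdf2 had not), and of these 0 were higher and 2 lower in slow/slow cells at the ESC stage, 3 and 1 at the NPC stage, 3 and 2 at the PSA-NCAM+ stage and 4 and 1 at the neuron stage. Bmp5 was the ligand that differed most in neurons, at 0.985 ± 0.052 CPM in WT libraries and 8.81 ± 1.26 CPM in slow/slow cells (SD, n = 3, log2 3.16, FDR 2.93e-08), and Bmp6 was lower (log2 -1.45, FDR 2.87e-07). Gdf6, a ligand of the dorsal neural tube, was higher in slow/slow NPCs (log2 1.85, FDR 4.08e-05) and neurons (log2 1.39, FDR 0.000851). Bmp8a was lower in ESCs, NPCs and PSA-NCAM+ cells, by a log2 of -1.12 in ESCs. The median change of the ligand list at the 4 stages was -0.35, 0.41, 0.38 and 0.88 on the log2 scale, beside medians of all genes between -0.06 and 0.01.

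All 7 receptor genes were tested, and 2 were higher and 1 lower at the ESC stage, 3 and 1 at the NPC stage, 4 and 1 at the PSA-NCAM+ stage and 4 and 2 at the neuron stage. The shares of all genes called were 40.4%, 56.7%, 56.7% and 51.9% at these stages. The type I receptor gene Bmpr1b was 0.425 ± 0.14 CPM in WT libraries and 2.38 ± 0.12 CPM in slow/slow NPCs and 4.60 ± 0.62 CPM against 35.6 ± 0.92 CPM in neurons (SD, n = 3, log2 2.95, FDR 3.83e-07). Acvrl1, a type I receptor gene of endothelium, was lower in slow/slow cells in ESCs (log2 -1.95), NPCs (log2 -3.20) and PSA-NCAM+ cells (log2 -3.73) and higher in neurons (log2 3.88, FDR 2.12e-09). The endothelial markers were higher in slow/slow neurons and split in NPCs (values given with Id1). Their sum was 54.3 to 58.8 CPM in WT libraries and 13.6 to 18.8 CPM in slow/slow PSA-NCAM+ cells, where 0 were called higher and 2 lower, and it overlapped in ESCs (126 to 132 CPM and 129 to 132 CPM). By the authors' mean RPKM the ESC sum was mostly Pecam1, at 36.1 in WT and 35.3 in slow/slow cells. Cdh5 stood at 0.0133 and 0.03 and Kdr at 0.463 and 0.603 there. In PSA-NCAM+ cells Pecam1 was 14.0 and 2.45, Cdh5 1.99 and 0.23 and Kdr 1.05 and 1.07. At these stages the sum does not by itself name a cell type. The part of endothelial cells in the Acvrl1 values was not tested. Bmpr1a, a broadly expressed type I receptor gene, was 1.26-fold higher in slow/slow ESCs (log2 0.33, FDR 0.00206). The receptor list had medians of 0.13, 0.14, 0.37 and 0.33 at the 4 stages.

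Among the 5 coreceptor genes, 1 was higher and 3 lower at the ESC stage, 2 and 2 at the NPC stage, 3 and 1 at the PSA-NCAM+ stage and 4 and 0 at the neuron stage. For these and the SMAD genes below, the shares of all genes called were 40.4%, 56.7%, 56.7% and 51.9%. Tgfbr3 (log2 -2.25, FDR 3.71e-06) and Eng (log2 -0.86, FDR 4.99e-07) were lower in slow/slow ESCs and both were higher in neurons (log2 1.01 and 1.38). Of the 4 signal-transducing SMAD genes, 3 were higher and 1 lower at the ESC stage, 3 and 0 at the NPC stage, 3 and 0 at the PSA-NCAM+ stage and 2 and 1 at the neuron stage. Smad4, the partner of all receptor-activated SMADs, was higher in slow/slow cells at each stage by a log2 of 0.29 to 0.46, and Smad1 was higher at the first 3 stages, by 0.85 in PSA-NCAM+ cells (FDR 9.38e-09). Smad9 was the SMAD gene that was lower, in ESCs (log2 -1.65) and neurons (log2 -1.45). List medians at the 4 stages were -0.51, -0.28, 0.48 and 1.01 for the coreceptors and 0.41, 0.33, 0.44 and 0.21 for the SMADs.

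The 14 other extracellular antagonist genes gave 1 higher and 3 lower at the ESC stage, 6 and 2 at the NPC stage, 7 and 3 at the PSA-NCAM+ stage and 4 and 2 at the neuron stage. For these and the modulators below, the shares of all genes called were 40.4%, 56.7%, 56.7% and 51.9%. Unlike Nog, Fst, the gene of the activin and BMP antagonist follistatin, was higher in slow/slow NPCs, at 2.89 ± 0.02 CPM in WT libraries and 17.1 ± 5.45 CPM in slow/slow cells (SD, n = 3, log2 2.56, FDR 3.05e-07). Chrd, the gene of chordin, was lower in ESCs (log2 -0.80, FDR 0.0328) and NPCs (log2 -1.58, FDR 0.000105), as Nog was. In neurons Sostdc1 was higher (log2 2.90, FDR 1.91e-05) and Sost lower (log2 -4.71, FDR 4.73e-07). Intracellular modulators of the pathway (5 genes) had 3 higher and 1 lower at the ESC stage, 3 and 0 at the NPC stage, 3 and 0 at the PSA-NCAM+ stage and 0 and 2 at the neuron stage. Skil and Ski, corepressors of SMADs, were higher in slow/slow cells at the first 3 stages, Skil by a log2 of 0.39 to 0.67, and Ski was lower in neurons (log2 -0.51, FDR 3.07e-05). Bambi, a gene of a pseudoreceptor that BMPs induce, was lower in slow/slow ESCs (log2 -0.61, FDR 0.000803). The extracellular antagonists had medians of -0.30, 0.18, 0.51 and 0.01, and the intracellular modulators 0.23, 0.29, 0.20 and -0.16.

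Other BMP target genes, of which 7 of 8 were tested, gave 2 higher and 2 lower at the ESC stage, 3 and 1 at the NPC stage, 2 and 2 at the PSA-NCAM+ stage and 2 and 3 at the neuron stage. For these and the E proteins below, the shares of all genes called were 40.4%, 56.7%, 56.7% and 51.9%. Msx3, the homeobox gene of the dorsal neural tube, was higher in slow/slow NPCs (log2 3.34), PSA-NCAM+ cells (log2 4.38) and neurons, at 1.02 ± 0.17 CPM in WT libraries and 29.3 ± 1.97 CPM in slow/slow neurons (SD, n = 3, log2 4.85, FDR 4.06e-11). Msx1 was higher in slow/slow ESCs (log2 1.02) and NPCs (log2 1.12). Its neuron level by the authors' group means went the other way, with 4.82 RPKM for WT against 2.15 for slow/slow. Dlx5 was among the 3 genes of this list called lower in slow/slow neurons (log2 -2.13, FDR 6.41e-06). Dlx3, a gene of surface ectoderm, was lower in slow/slow ESCs (log2 -2.08), NPCs (log2 -2.26) and PSA-NCAM+ cells (log2 -3.19) and higher in neurons (log2 2.10). Its PSA-NCAM+ libraries were uneven, at 30.8 ± 27.7 CPM in WT libraries and 3.48 ± 4.36 CPM in slow/slow cells (SD, n = 3). Surface ectoderm marker sums overlapped in ESCs (43.5 to 50.2 CPM in WT, 46.6 to 56.0 CPM in slow/slow cells). They were 1019 to 1114 CPM in WT libraries and 334 to 478 CPM in slow/slow NPCs and 143 to 186.5 CPM in WT libraries and 317 to 343.5 CPM in slow/slow neurons, and their part in the Dlx3 values was not tested. E proteins, the partners that Id proteins hold, are encoded by Tcf3, Tcf4 and Tcf12. Tcf3 was higher in slow/slow ESCs (log2 0.36), and all 3 were higher at the other stages, Tcf12 by 1.49 in neurons (FDR 8.32e-09) and Tcf4 by 1.44 in PSA-NCAM+ cells (FDR 5.76e-09). The medians at the 4 stages were -0.10, 0.36, 0.18 and -0.12 for the other target genes and 0.26, 0.80, 1.16 and 0.69 for the E proteins.

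**Figure D5:**
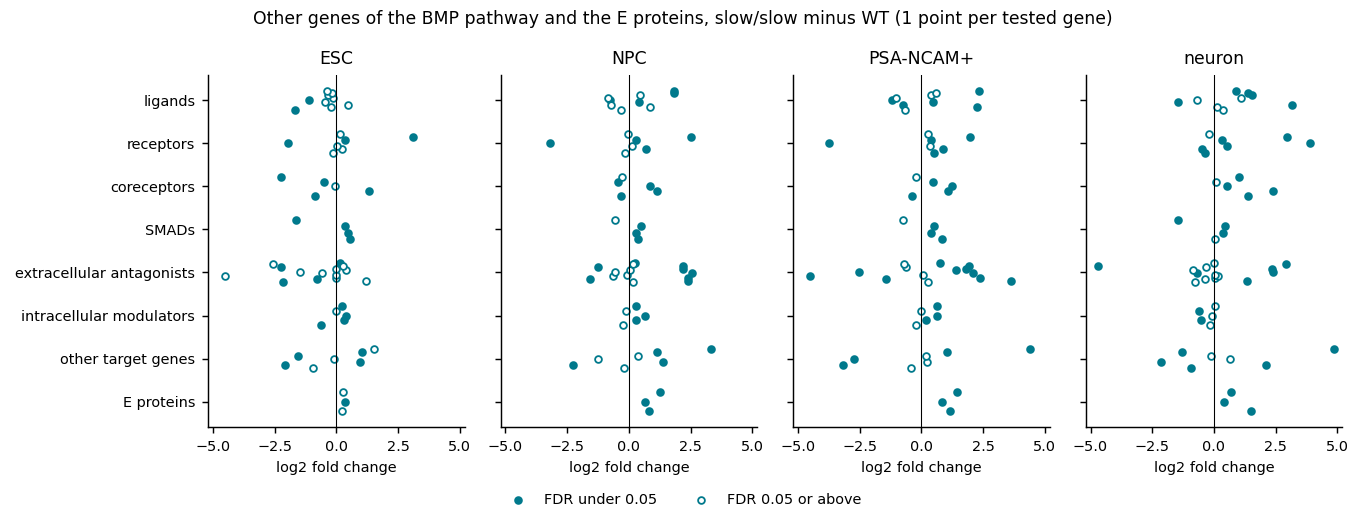
Log2 ratio of slow/slow to WT cells for every tested gene of 8 pathway lists at the 4 stages, with called genes (FDR under 0.05) as filled points. All 3 E protein genes were called higher at NPCs, PSA-NCAM+ cells and neurons, and Tcf3 also in ESCs. Every other list had called genes on both sides at some stage, while the coreceptors in neurons had 4 higher and 0 lower.

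Across the 24 samples the genes whose log2 CPM was most like that of Id1 were Zfp36l1 (Pearson r = 0.954), 3110003A17Rik (0.906), Tnfaip8 (0.903), Kdm5a (0.893) and Id3 (0.886). For Bmp4 they were Ptrf (r = 0.894), S100a11 (0.793), Sema3b (0.783), Ctnnd1 (0.771) and Kirrel (0.766). Such correlations describe these libraries, which share 8 group means, and carry no test. Within the set Id2 and Nog (0.85) and Smad6 and Msx2 (0.85) were the next most alike. When group means were taken out, so that only differences among replicates remained, Smad7 and Nog (0.86) and Bmp4 and Bmp7 (0.836) varied together, and the PSA-NCAM+ libraries numbered 1 are among these points.

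As a readout that had no part in the choice of the genes, 40 splicing events of the members were listed with their percent spliced in (PSI), in 9 of the 10 genes and none in Nog. Coverage and balance filters were passed by 22 of them at the ESC stage, 26 at the NPC stage, 32 at the PSA-NCAM+ stage and 23 at the neuron stage. At no stage did any of them change by more than 10 points with a posterior probability over 0.95, beside 0.199%, 0.874%, 0.263% and 0.884% of all events at the 4 stages in that order. The limma test of logit PSI likewise called 0 events with a change over 10 points, while 3, 11, 2 and 8 of the members' events had an unadjusted p under 0.05 at any size of change, beside 10.7%, 16.7%, 9.58% and 18.5% of all events. An FDR under 0.05 at any size was reached by 0, 0, 0 and 2 of them (0.149%, 1.95%, 0% and 2.89% of all events), and by 0, 0, 0 and 3 with the replicate block (0.319%, 2.92%, 0.193% and 6.98%). The largest differences were 3.14 points for an intron of Bmp4 in ESCs, 3.91 points for a 3′ splice site of Smad7 in NPCs, 3.81 points for a 57-base exon of Smad6 in PSA-NCAM+ cells and 3.797 points for the intron of Id1 in neurons. That intron (chr2:152562482-152562707, mm9, 226 bases) had a PSI (here the percent of transcripts that keep it) of 0.77, 2.35 and 1.28 in WT and 6.16, 4.59 and 5.04 in slow/slow neurons, with no overlap and a posterior probability of 0.971. It was the 1 event of a member with a posterior over 0.95 at any size of change. The share of all events past that posterior at any size is not given here, so this count cannot be set against it.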

How the data were processed

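Gene expression was measured in 24 libraries (8 groups of 3) of polyadenylated RNA. The authors mapped paired reads to mm9 with vast-tools and deposited raw counts per gene, which are whole numbers that were not normalized. The deposited RPKM values, which divide by transcript length and library size, are means that the authors took per group. For splicing, the authors deposited the percent spliced in (PSI) of each event and sample with its read numbers. Further columns and a second splicing table hold the authors' own tests (log2 fold changes, FDR, called events) and were not used. Whether counting used strand was not given in the sources used here. The study describes separate differentiation experiments, and the libraries of a group stand for these. In the fit of all samples the spread of a gene was estimated over all 8 groups together. P-values at a stage thus also carry the spread of the other stages, the uneven PSA-NCAM+ libraries included. Fits of the compared groups alone leave the other groups out.

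Total counts per library ranged from 32974432 to 104466886, 0 pairs of libraries were identical, and 0 columns of sample values were left unused. Counts were analyzed in R 4.3.3 with edgeR 4.0.16 (filterByExpr by group, TMM scaling, glmQLFit and glmQLFTest on 8 group means, 13 contrasts), which left 16627 genes, a common biological coefficient of variation of 0.164 and 16 residual degrees of freedom. P-values were adjusted by the Benjamini-Hochberg method over all genes tested. SDs are over 3 libraries. Splicing events were called where PSI differed by over 10 points with a posterior probability over 0.95. All 6 libraries of a stage had to pass the coverage scores, introns needed at least 15 reads and a balance p of at least 0.05, microexons have no balance score, and of the splice sites of 1 event a single one was counted. Gene coordinates came from GENCODE M21 on GRCm38, which held 20451 (94.9%) of the identifiers with counts. Splicing coordinates are in mm9 as deposited, and the builds were never combined. Scripts were tested on simulated data.

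The members and pathway lists were chosen with earlier results of these data known. All members are described. Genes named from each other list were taken from up to 3 per genotype comparison. These were past FDR 0.05 with the largest change and a mean of at least 1 CPM in a group. Not all genes that met this rule are named. A few genes that the rule named at one stage are also given at another. For Id1 and Bmp4 the 5 most correlated genes are named. Whether replicate numbers pair the samples was checked by correlating same-numbered WT and slow/slow deviations from group means. The correlations were 0.54, 0.455 and 0.401 in PSA-NCAM+ cells, which were taken as paired, and between -0.084 and 0.068 at the other stages. Differently numbered libraries were not correlated and no label gives a pairing, so the pairing remains an inference. Alternatives were DESeq2 size factors, upper-quartile scaling, no filter, a replicate block, the compared groups alone, the DESeq2 1.42.0 Wald test, leaving out each library and, for splicing, limma 3.58.1, a larger change and a higher read minimum.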

Additional observations from a re-analysis of the deposited data

Results flagged for a closer look

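For 11 results the difference between genotypes was itself different at 2 stages by the interaction test of edgeR (log2 scale, slow/slow minus WT, later or derived stage minus the earlier one). From ESCs to NPCs the difference shifted by -3.23 for Bmp4 (FDR 0.000295), -1.02 for Id1 (FDR 0.00624) and 2.21 for Id2 (FDR 1.25e-06), where 24.6% of all genes were called. Bmp4 went from higher to lower in slow/slow cells in all 3 libraries of each group, and Id2 from levels of both genotypes between 1.24 and 1.72 CPM, not called, to levels called higher in slow/slow cells.

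From NPCs to PSA-NCAM+ cells it shifted by 1.21 for Bmp7 (FDR 0.00187), 2.53 for Id4 (FDR 1.28e-05) and 2.39 for Nog (FDR 0.00332), where 14.6% of all genes were called. Id4 went from lower to higher in slow/slow cells without overlap at either stage. The Bmp7 and Nog shifts include slow/slow PSA-NCAM+ library 1, in which both genes were highest. Both calls were lost when only the compared groups were fitted (FDR 0.0505 for Bmp7 and 0.0644 for Nog). Leaving out 1 library at a time, both calls were kept in all 12 fits, with shifts of 0.88 to 1.37 for Bmp7 and 1.46 to 2.75 for Nog.

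From NPCs to neurons it shifted by 0.65 for Bmp7 (FDR 0.0227), 1.04 for Id1 (FDR 0.00155), 0.99 for Id4 (FDR 0.00301), 1.13 for Msx2 (FDR 0.0124) and 0.60 for Smad6 (FDR 0.0164), where 55.1% of all genes were called. Bmp7 and Id4 stayed lower in slow/slow cells at both stages and Id1 and Msx2 higher. Leaving out 1 library at a time, the Bmp7 call was lost in 4 of 12 fits (slow/slow NPC library 1 or 2, WT neuron library 1 or slow/slow neuron library 1, shifts of 0.58 to 0.79 over all fits) and the Smad6 call in 2 of 12 (WT neuron library 1 or slow/slow neuron library 3, 0.47 to 0.73).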

How the results depend on the processing

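Over the 10 members, the genotype differences kept direction and call in 39 of 40 cases with DESeq2 size factors, 39 without the filter on low counts, 37 with upper-quartile scaling, 40 with the DESeq2 Wald test and 38 with the replicate block. The replicate block lost Smad6 in ESCs (0.37, FDR 0.0501) and gained Smad7 in PSA-NCAM+ cells (-0.60), and it changed no other member's call in any contrast. The cause of the changes below was not tested.

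Directions turned mostly for values near 0. For Nog, the shift from NPCs to neurons was 0.0069 with DESeq2 size factors, 0.15 with upper-quartile scaling and 0.0099 with the DESeq2 Wald test. With upper-quartile scaling Smad6 in PSA-NCAM+ cells was -0.0089, the WT change of Msx2 from ESCs to NPCs 0.0715 (2.51e-05 without the filter) and that of Id1 from NPCs to neurons -0.19. Without both PSA-NCAM+ libraries numbered 1, added after seeing the data, the PSA-NCAM+ differences of Smad6 (-0.17) and Msx2 (-0.0621), the slow/slow change of Smad7 from NPCs (-0.0356) and the shifts of Bmp4 (-0.13), Id1 (-0.12) and Id2 (0.0660) from NPCs turned.

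The counts of this paragraph stand without the share of all genes called in the same fit. They do not show whether a rise or fall was particular to the members. Fitting only the groups compared called 2 members in PSA-NCAM+ cells, and 8, 1 and 8 members in the interactions of NPCs, PSA-NCAM+ cells and neurons. Without both libraries numbered 1 these were 7 members in PSA-NCAM+ cells and 6 in their interaction. Leaving out 1 library at a time, called members numbered 7 to 9 in ESCs, 7 to 8 in NPCs, 4 to 6 in PSA-NCAM+ cells and 6 to 8 in neurons, and 3 to 6 (6 without slow/slow PSA-NCAM+ library 1) and 3 to 5 (3 without WT neuron library 1) in the PSA-NCAM+ and neuron interactions.

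Left-out libraries also turned some differences. In PSA-NCAM+ cells Bmp4 ranged from -1.17 to 0.33, Id3 from -0.0365 to 0.59, Smad6 from -0.11 to 0.18 and Msx2 from -0.31 to 0.38, each lowest without slow/slow library 1. Smad7 in NPCs ranged from -0.0724 to 0.0164. Changes ranged from -0.0714 to 0.10 for Msx2 in WT cells from ESCs to NPCs, from -0.0490 to 0.18 for Id1 in WT cells from NPCs to neurons and from -0.0345 to 0.77 for Smad7 in slow/slow cells from NPCs to PSA-NCAM+ cells. Shifts from NPCs ranged from -0.0067 to 0.27 for Id1 and -0.31 to 0.0795 for Id2 in PSA-NCAM+ cells, and -0.10 to 0.0190 for Nog in neurons.

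No splicing event of a member was called under any alternative. With 3 libraries a group, small changes of low genes such as Nog and Id2 in ESCs are the least precise.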
